A study of Rattus norvegicus with 4 samples.

Results

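Members of the Slc22 family of membrane transporters were followed in rat kidneys that had been perfused outside the body, and 1 of them, Slc22a13, was far higher on both arrays of kidneys whose perfusates held a supplement. The members, Slc22a2, Slc22a5, Slc22a6, Slc22a7, Slc22a8, Slc22a12 and Slc22a13, were taken by gene symbol from the array's platform annotation. They are 7 of the 14217 genes that have a probe set of their own, and each is read from 1 probe set, the brighter of 2 in the case of Slc22a8.

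All kidneys came from male Wistar rats of 300 to 480 g and had been left for 29 min in the dead donor before removal, as a model of donation after cardiac death. In the heparin group a pump drove cold University of Wisconsin solution, an organ preservation fluid, through the kidney for 3 h, followed by 30 min of warm, oxygenated, modified Krebs-Henseleit buffer, and both fluids held low molecular weight heparin at 10 IU/ml. The PPS group was treated likewise with PPS, which the labels give only as this abbreviation, also at 10 IU/ml. The warm group had both perfusions without a supplement, and the cold group had the cold perfusion alone and is the control. Each group is 1 array, hybridised with an equimolar RNA pool of 3 kidneys, so the 4 arrays carry no spread between replicates and no p-value is given. The perfusates are a buffer and a preservation solution, and the labels name no blood in them, so the model holds only the cells that the flushed kidney still has.

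Slc22 transporters carry charged small molecules across the plasma membrane. In the kidney most of them sit in the proximal tubule, where those of the basolateral membrane take drugs, toxins and metabolites from the blood and those of the apical membrane exchange them with the forming urine. The organic anion transporters of the family swap an anion for a dicarboxylate or another anion, the organic cation transporters let cations in along the membrane potential, and others handle urate or carnitine.

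The promoters of the members that differed most, and of 1 member that hardly differed, are printed so that they can be set side by side. They are the 250 bases before the RefSeq gene start in the rat assembly GRCr8, 5′ to 3′ on the gene's strand. Slc22a13 lies at chr8:127811751-127812000 on the minus strand, Slc22a7 at chr9:22045248-22045497 on the plus strand and Slc22a8 at chr1:214927034-214927283 on the plus strand. Capitals mark the letters GTTAAT, the half-site of the tubular transcription factor HNF1.
Slc22a13: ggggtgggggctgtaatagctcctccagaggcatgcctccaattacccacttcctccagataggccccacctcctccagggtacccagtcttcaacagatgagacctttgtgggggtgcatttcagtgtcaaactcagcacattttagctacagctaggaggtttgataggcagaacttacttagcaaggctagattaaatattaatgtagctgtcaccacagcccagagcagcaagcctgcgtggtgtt
Slc22a7: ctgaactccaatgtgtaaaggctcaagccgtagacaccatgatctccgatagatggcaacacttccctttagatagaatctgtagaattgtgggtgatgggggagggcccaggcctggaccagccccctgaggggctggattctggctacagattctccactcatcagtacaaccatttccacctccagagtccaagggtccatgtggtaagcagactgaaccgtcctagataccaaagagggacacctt
Slc22a8: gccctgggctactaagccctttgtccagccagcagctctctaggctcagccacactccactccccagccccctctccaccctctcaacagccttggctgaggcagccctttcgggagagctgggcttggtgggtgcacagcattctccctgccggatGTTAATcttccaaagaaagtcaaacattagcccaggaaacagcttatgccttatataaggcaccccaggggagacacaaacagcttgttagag
A promoter entry was matched for 6 of the 7 members, all but Slc22a6. GTTAAT was found on either strand in 1 of these 6, Slc22a8, where it begins 93 bases before the start, and in 6.45% of 33469 promoters of the same length. The AP-1 motif TGANTCA was in 0 of the 6 and in 6.34% of all promoters, the cyclic AMP response element TGACGTCA in 0 and 1.59%, and the HNF4 motif CAAAGTCCA in 0 and 0.338%. Of the 4 motifs only GTTAAT was found in these promoters, so no overlap between motifs arises, and a match is only a match of letters.

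Values are log2 expression values as deposited, and values under a floor of 4.51, the 50th percentile of all values, were raised to it. A difference of at least 1 on the log2 scale, which is 2-fold, is called past the size limit. Between 9253 and 9303 genes were above the floor on each array, and 9393 were above it on at least 1. All 7 members were above the floor on all 4 arrays, Slc22a7 by as little as 0.71 on the heparin array and Slc22a13 by 0.78 on the cold array. Bacterial poly-A transcripts, spiked into RNA before labelling, were higher on the warm than on the cold array in 24 of 24 probe sets, with a median log2 difference of 1.25. Among heparin, PPS and warm arrays these medians differed by 0.18 or less. The 3′ to 5′ difference of beta-actin, a sign of RNA quality, was 3.39 on the heparin, 3.19 on the PPS, 3.22 on the warm and 2.79 on the cold array. That of a second control transcript, GAPDH, was 0.72, 0.81, 0.84 and 0.60 on the same arrays, in that order. The part of labelling and RNA quality in differences from the cold array was not tested. The tissue label held: 20 of 24 listed proximal tubule markers were above the floor. Their median log2 level lay between 13.80 and 13.94 on each array. Kap, Miox and Slc34a1, named after their values were seen, lay between 14.86 and 16.05 on every array. Slc5a1 and Cyp27b1 of the same list were below the floor on every array.

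**Figure D1:**
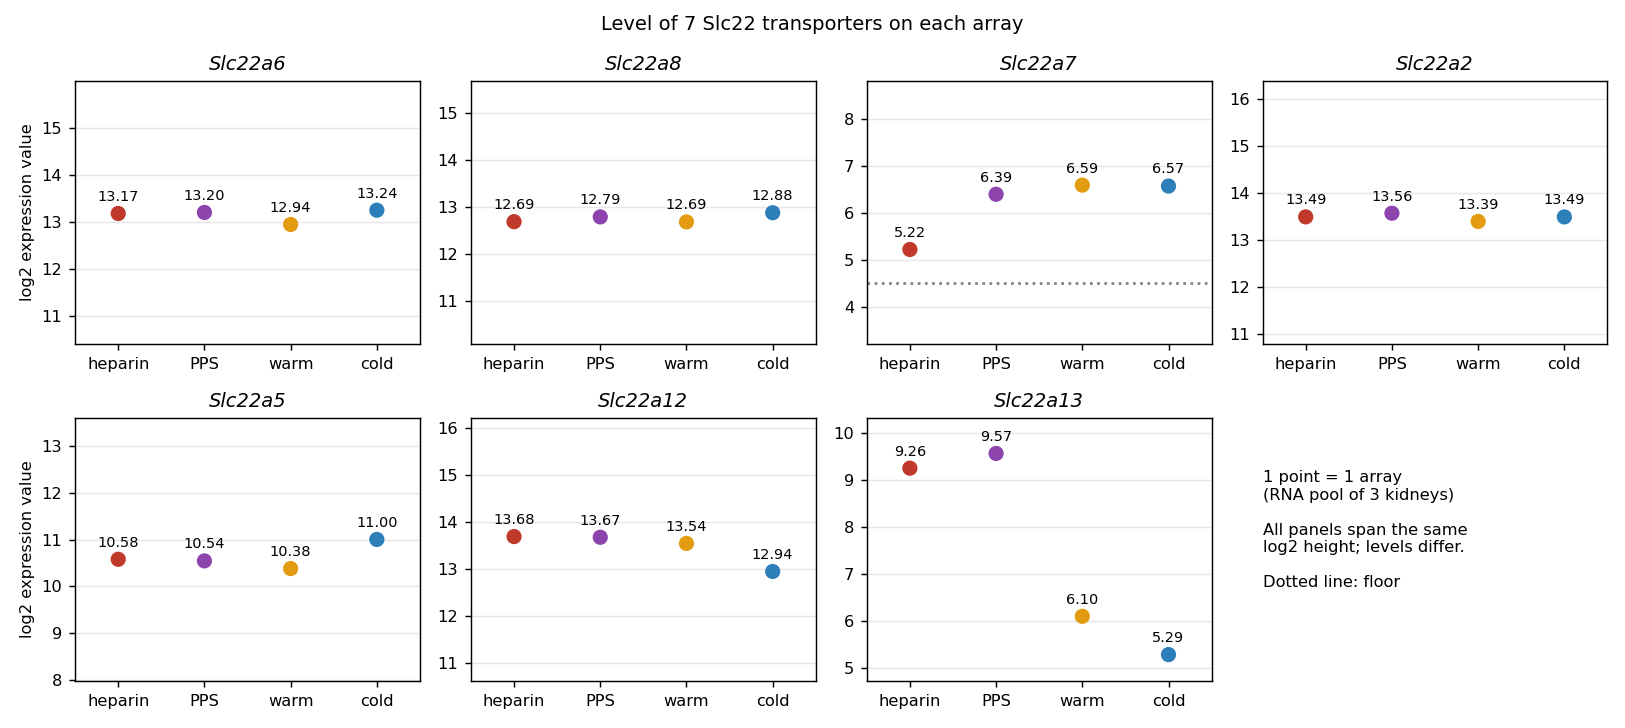
Log2 expression value of each of the 7 Slc22 transporters on the heparin, PPS, warm and cold arrays, 1 point per array of 3 pooled kidneys, with panels of equal log2 height and the floor dotted. Slc22a13 spans 4.28 on the log2 scale and Slc22a7 spans 1.37, while the other 5 span between 0.17 and 0.74.

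The basolateral organic anion transporters Slc22a6 and Slc22a8 stayed under the size limit in all 6 comparisons, with spans of 0.30 and 0.20. Of all genes, 53.1% had a smaller range than Slc22a6 and 30.9% a smaller one than Slc22a8. Slc22a6, known as OAT1, takes up organic anions such as p-aminohippurate in exchange for dicarboxylates. Its log2 value was 13.17 on the heparin, 13.20 on the PPS, 12.94 on the warm and 13.24 on the cold array. The warm array was lowest, and the cold array highest. The log2 difference was -0.30 in warm minus cold, and 70.6% of all genes differed less. Heparin minus warm was 0.23 and PPS minus warm 0.26, where 72.4% and 78.8% of all genes differed less. In pooled tissue, fewer cells of a type and less RNA per cell cannot be told apart, for this gene and for all that follow.

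Slc22a8, known as OAT3, is a basolateral exchanger with a wider range of anions that includes conjugated steroids. It read 12.69 on the heparin, 12.79 on the PPS, 12.69 on the warm and 12.88 on the cold array. Heparin minus warm was 0.0049, PPS minus warm was 0.11 and warm minus cold was -0.20. A second probe set of Slc22a8 read 9.19, 9.29, 9.03 and 9.18 on the same arrays, in that order. For it, heparin minus warm was 0.16, PPS minus warm 0.25 and warm minus cold -0.14, the same directions as for the probe set used. The directions differed in heparin minus cold, with -0.19 for the probe set used and 0.01 for the second. They also differed in PPS minus cold, with -0.09 and 0.11 in that order. Neither probe set passed the size limit. Slc22a6 and Slc22a8 are direct neighbours on chromosome 1, and both were highest on the cold array by the probe sets used. The second probe set of Slc22a8 was highest on the PPS array.

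Slc22a7, known as OAT2, was the member that was lower with heparin. It transports a set of small anions and nucleotides, and in rat kidney it has been placed in the apical membrane of the tubule. Its log2 value was 5.22 on the heparin, 6.39 on the PPS, 6.59 on the warm and 6.57 on the cold array. The heparin array stood below the other 3, which lay within 0.19 of each other. Slc22a7 was 2.58-fold lower in heparin than in warm kidneys (log2 difference -1.37), and 99.1% of all genes had a smaller difference in size. It was 2.26-fold lower in heparin than in PPS kidneys (log2 difference -1.18), which placed it 17th among the 28 genes lower by 2-fold or more in that comparison. It was 2.55-fold lower in heparin than in cold kidneys (log2 difference -1.35). PPS minus warm gave -0.19 and warm minus cold gave 0.02. The gene has 1 probe set with values near the floor, and with the floor at the 60th percentile, 6.73, all 4 of its values lay at the floor and no difference was left. Which kidneys went into a pool and which supplement they received cannot be told apart.

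The organic cation transporter Slc22a2, known as OCT2, takes up cations from the blood side of the proximal tubule. It read 13.49 on the heparin, 13.56 on the PPS, 13.39 on the warm and 13.49 on the cold array. With a span of 0.17 it was the member with the smallest range. Of all genes, 26.3% had a smaller range still. Its largest difference among the 6 comparisons was 0.17 in PPS minus warm.

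Slc22a5, known as OCTN2, brings carnitine into cells together with sodium. Its log2 value was 10.58 on the heparin, 10.54 on the PPS, 10.38 on the warm and 11.00 on the cold array. The cold array stood above all 3 warm-perfused arrays. It was 1.54-fold lower in warm than in cold kidneys (log2 difference -0.62), 1.34-fold lower in heparin than in cold kidneys (-0.42) and 1.37-fold lower in PPS than in cold kidneys (-0.46). These 3 comparisons share the cold array, so they are not independent of each other. Scaled to the poly-A controls, they gave -1.81 for warm, -1.69 for heparin and -1.53 for PPS, each past the size limit. Heparin minus warm was 0.20 and PPS minus warm 0.16.

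Slc22a12, known in human as URAT1, is the apical urate exchanger of the proximal tubule. It read 13.68 on the heparin, 13.67 on the PPS, 13.54 on the warm and 12.94 on the cold array. The cold array was the low one here. It was 1.51-fold higher in warm than in cold kidneys (log2 difference 0.60), 1.67-fold higher in heparin than in cold kidneys (0.74) and 1.66-fold higher in PPS than in cold kidneys (0.73). None of these passed the size limit, although 96.1% of all genes differed less in heparin minus cold. The direction flipped once arrays were scaled to the poly-A controls, to -0.53 for heparin, -0.35 for PPS and -0.59 for warm kidneys, each against cold ones. Heparin minus warm was 0.15 and PPS minus warm 0.13.

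Slc22a13 gave the largest differences of the family. Its human protein, OAT10, exchanges urate and the vitamin nicotinate for other anions and is found in the apical membrane of kidney tubules. Its log2 value was 9.26 on the heparin, 9.57 on the PPS, 6.10 on the warm and 5.29 on the cold array. Both supplemented arrays lay above both others by more than 3 on the log2 scale. Slc22a13 was 8.89-fold higher in heparin than in warm kidneys (log2 difference 3.15) and 11.0-fold higher in PPS than in warm kidneys (3.47). In each of these comparisons it ranked 2nd among all genes that were higher, of 36 genes past the size limit for heparin and 48 for PPS. Both comparisons share the warm array.

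Against the cold array, Slc22a13 was 15.6-fold higher in heparin kidneys (log2 difference 3.97) and 19.4-fold higher in PPS kidneys (4.28), where it ranked 8th and 5th among the higher genes. The difference between the supplements was small, with -0.31 in heparin minus PPS, and 88.0% of all genes differed less. In warm minus cold, Slc22a13 was 1.76-fold higher (0.81), short of the size limit, and this difference turned to -0.37 under poly-A scaling. Under the same scaling, heparin minus cold fell to 2.695 and PPS minus cold to 3.203, both still past the size limit. Heparin minus warm was then 3.07 and PPS minus warm 3.58. Without that scaling but with the floor at the 60th percentile, above the warm and cold values, these differences were lower bounds of 2.52 for heparin and 2.84 for PPS. The gene has 1 probe set, annotated through an expressed sequence tag, and no other probe set checks it. As for Slc22a7, the supplement and the choice of kidneys cannot be told apart.

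**Figure D2:**
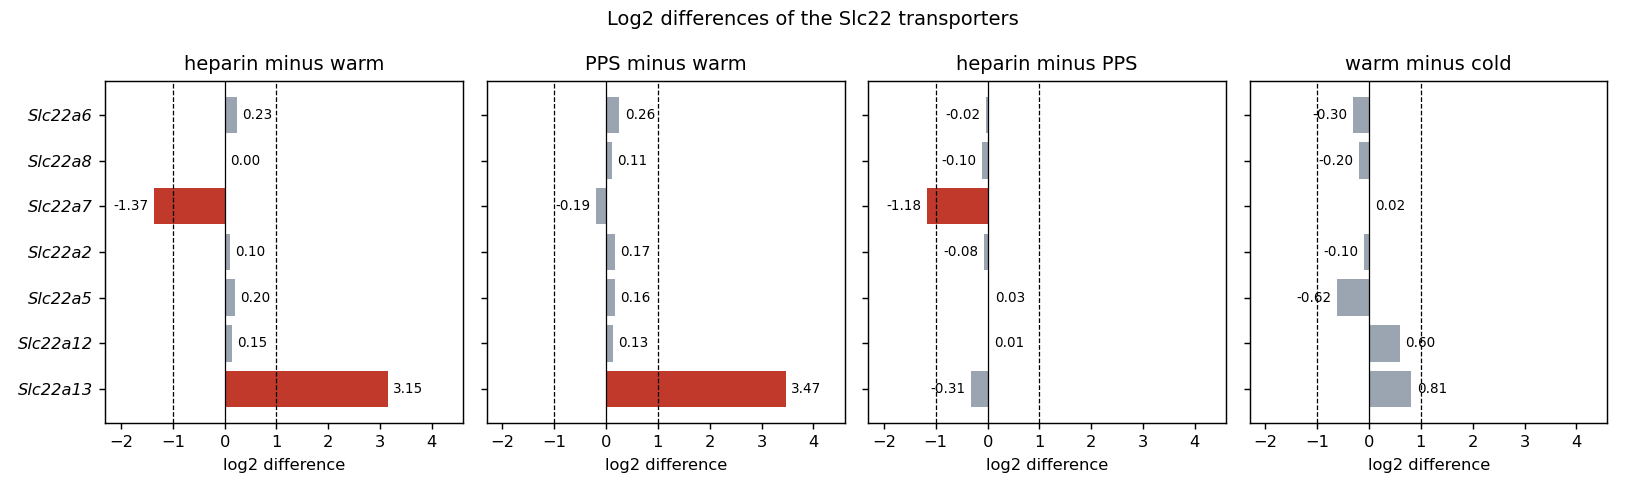
Log2 differences of the 7 Slc22 transporters in heparin minus warm, PPS minus warm, heparin minus PPS and warm minus cold, with the 2-fold size limit dashed and bars past it in red. Slc22a13 passes it with both supplements (3.15 and 3.47) and Slc22a7 does so in heparin minus warm (-1.37) and heparin minus PPS (-1.18).

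Read over the 7 members, few differences passed the size limit. With heparin set against warm, 1 member was higher past the limit, as were 0.383% of all 9393 genes, and 1 was lower, as were 1.48%. With PPS set against warm, 1 member was higher (0.511% of all genes) and 0 were lower (1.71%). Between heparin and PPS, 0 members were higher (0.192%) and 1 was lower (0.298%). Between warm and cold, 0 members were higher (2.48%) and 0 lower (1.16%). Against cold, 1 member was higher (1.17%) and 1 lower (0.916%) with heparin, and 1 was higher (1.03%) and 0 lower (0.788%) with PPS. Slc22a7 and Slc22a13 account for every member past the limit in these 6 comparisons. The members had been picked with earlier results of these arrays known, so these counts describe them and do not test them. At a smaller limit of 1.5-fold, 3 members differed between heparin and cold (6.77% of all genes), 2 between PPS and cold (6.86%) and 3 between warm and cold (11%). These were Slc22a12 and Slc22a13 in each case, with Slc22a7 for heparin and Slc22a5 for warm.

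For heparin against warm, the median log2 difference over the 7 members was 0.15, with 6 positive, and for PPS against warm it was 0.16, also with 6 positive. Over all genes both medians were 0. For warm against cold the members had a median of -0.10, with 3 positive and 4 negative, and all genes one of -0.0032. Under poly-A scaling all 7 members were negative in this comparison, and the median over the whole gene set was -1.19. The scaling shifts all members alike within a comparison, so their order could not change. Slc22a13 (-0.37) and Slc22a12 (-0.59) were the 2 highest, as before it.

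**Figure D3:**
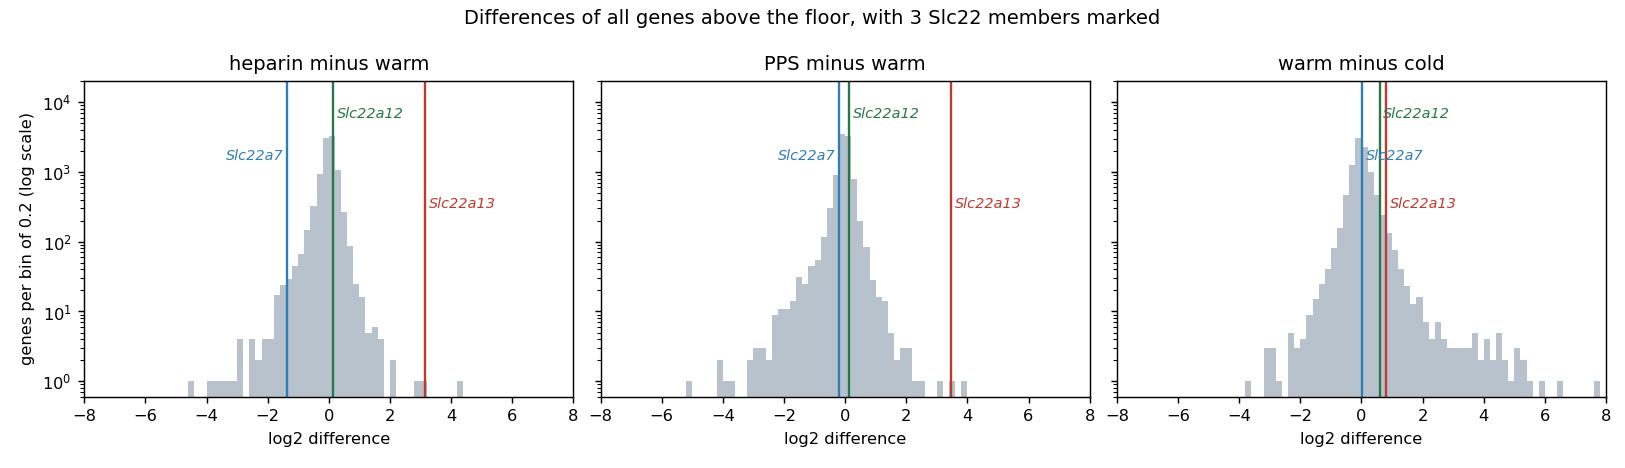
Number of genes per bin of 0.2 log2 units, on a log axis, for heparin minus warm, PPS minus warm and warm minus cold over the 9393 genes above the floor, with vertical lines at Slc22a13, Slc22a7 and Slc22a12. The line of Slc22a13 lies at the far right edge in both supplement panels (3.15 and 3.47) and inside the distribution in warm minus cold (0.81).

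Of the 17 other Slc22 genes listed, 9 had a probe set and 8 of these were above the floor. Of these 8, 0 passed the size limit in any of the 6 comparisons. The share of all genes past it was also small, between 0.192% and 2.48% per comparison and direction. Slc22a3, an organic cation transporter, was at the lowest value of 2.11 on every array. The largest differences were in Slc22a23, an orphan member, which read 9.82 on the heparin, 9.67 on the PPS, 9.19 on the warm and 10.13 on the cold array. Heparin minus warm was 0.63, PPS minus warm 0.47 and warm minus cold -0.93. Slc22a18, an orphan transporter from an imprinted region, differed by -0.46 in warm minus cold. Over the 8 genes the median of heparin minus warm was 0.12, that of PPS minus warm 0.20 and that of warm minus cold -0.10.

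Slc22a5 shares a stretch of chromosome 10 with Slc22a21 and Slc22a4, carnitine and cation transporters of the same subfamily, and the 3 did not run alike. Slc22a21 read 7.82 on the heparin, 7.95 on the PPS, 7.52 on the warm and 7.33 on the cold array. Slc22a4 read 10.02 on the heparin, 10.41 on the PPS, 10.04 on the warm and 9.81 on the cold array. Both were lowest on the cold array, where Slc22a5 was highest. On the other side of Slc22a5 lies Irf1, an interferon regulatory factor, which was chosen here for its place and differed by 3.49 in warm minus cold against -0.62 for Slc22a5.

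The nearest measured genes around the 2 members with the large differences did not share them. For each member the nearest 3 genes above the floor on either side were read, a rule chosen after the values were seen. The closest were Oxsr1, 3 genes from Slc22a13, and Zfp318, 2 genes from Slc22a7. The genes directly beside these 2 members were not among those read. The 6 neighbours of Slc22a13, among them the adaptor Myd88 and the kinase Oxsr1, lay between -0.39 and 0.62 for heparin minus warm, and between -0.43 and 0.27 for PPS minus warm. The 6 neighbours of Slc22a7 differed by between -0.71 and 0.27 in heparin minus warm, the lowest being the transcription factor Srf. None of these 12 values in heparin minus warm passed the size limit. Of all genes, 0.383% were higher and 1.48% lower past it.

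Transporters and helpers that work with the Slc22 proteins rarely passed the size limit, as was so for all genes. Of 21 listed, 16 had a probe set and 15 were above the floor. None was past the size limit with heparin or with PPS against warm. Of all genes, 0.383% were higher and 1.48% lower past it with heparin, and 0.511% and 1.71% with PPS. The median of the partners was 0.19 with heparin and 0.18 with PPS, each with 12 of 15 positive, where all genes had a median of 0. In warm minus cold, 1 of 15 was lower past the limit, as were 1.16% of all genes. This was Slc5a12, a sodium-coupled lactate carrier of the apical membrane. It read 10.84 on the heparin, 10.82 on the PPS, 10.49 on the warm and 11.52 on the cold array, a difference of -1.03 in warm minus cold. For the apical efflux pump Abcc4, heparin minus warm was 0.70, PPS minus warm 0.29 and warm minus cold -0.65. Slc13a3, which supplies the basolateral anion exchangers with dicarboxylates, had a heparin minus warm difference of -0.56 and a PPS minus warm difference of -0.16. Slc47a1, the apical proton exchanger that passes cations on from Slc22a2, differed by 0.19 and 0.21 in the same comparisons, and the scaffold Pdzk1 by 0.13 and 0.07.

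**Figure D4:**
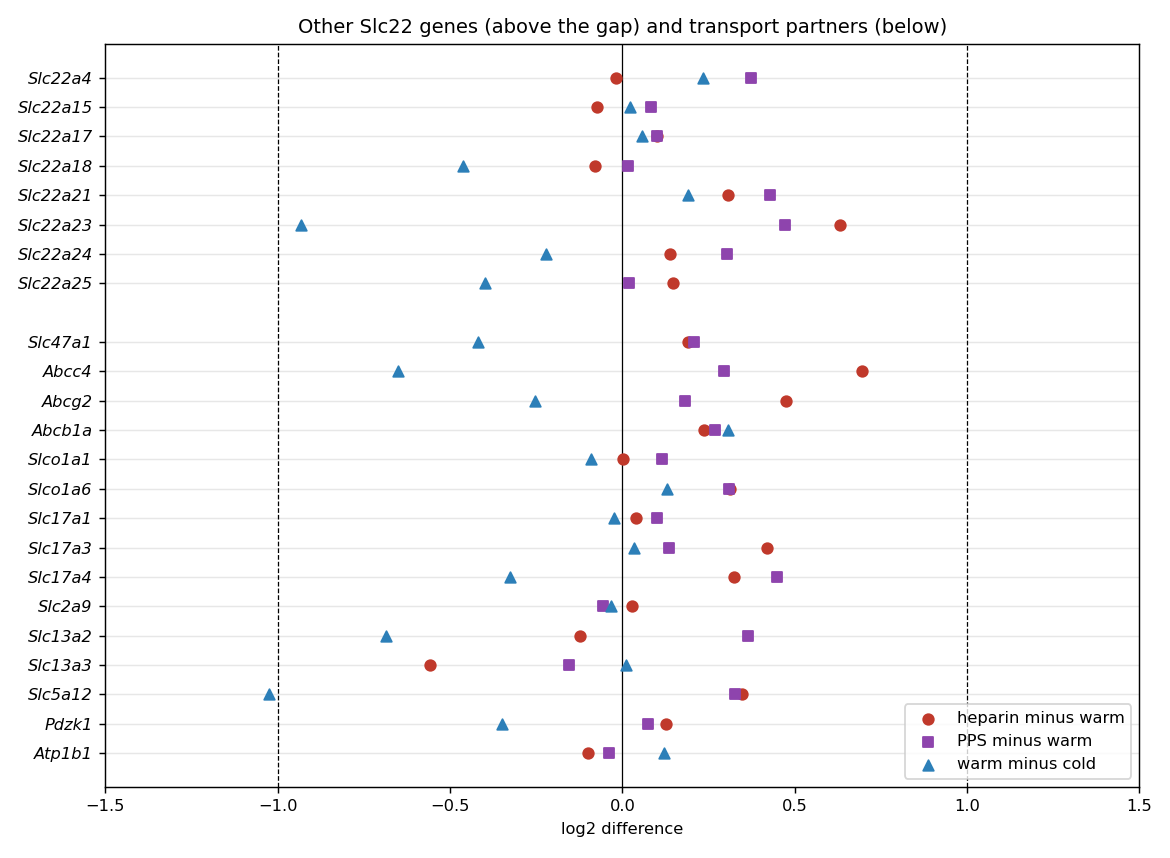
Log2 differences of 8 other Slc22 genes and 15 transport partners above the floor in heparin minus warm (circles), PPS minus warm (squares) and warm minus cold (triangles), with the 2-fold size limit dashed. Slc5a12 in warm minus cold (-1.03) is the only point past it.

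By their median, enzymes of the substrates were close to level with either supplement against warm, but lower in warm than in cold kidneys. Of 17 listed genes of urate, nicotinate and carnitine metabolism, 14 were above the floor. Of these, 0 passed the size limit in any of the 6 comparisons. Few of all genes did so either, between 0.192% and 2.48% per comparison and direction. Xdh, the xanthine dehydrogenase that makes urate, differed by -0.42 in warm minus cold. Naprt, which starts the conversion of nicotinate, differed by 0.19 with heparin and 0.15 with PPS, each against warm. The median over the 14 was 0.0020 for heparin and -3.2e-04 for PPS against warm, and -0.23 for warm against cold. Uox, the urate oxidase, was at the lowest value on all 4 arrays.

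Among 17 listed regulators of Slc22 genes or proteins, 13 had a probe set and 10 were above the floor. Their median was 0.06 for heparin and -0.01 for PPS against warm, and -0.05 for warm against cold. Hnf4a, a nuclear receptor that drives proximal tubule genes, read 13.30 on the heparin, 13.29 on the PPS, 13.01 on the warm and 13.39 on the cold array. Bcl6, a transcriptional repressor listed because it has been linked to the promoter of the OAT1 gene, was the 1 regulator past the limit. It read 11.81 on the heparin, 11.76 on the PPS, 11.22 on the warm and 10.02 on the cold array. Against cold the differences were 1.80 for heparin, 1.74 for PPS and 1.20 for warm, and against warm they were 0.60 for heparin and 0.54 for PPS.

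By distance between profiles, no gene compared here lay close to Slc22a13. Likeness was measured as the distance between log2 profiles over the 4 arrays, each centred on its own mean. The 9159 other genes above the floor on every array were compared, so genes under it on any array were left out. The distance is not scaled for size, so a gene of like shape but smaller span counts as far. The nearest were Areg, an EGF receptor ligand, at 2.36, Nom1 at 2.45, Ccdc77 at 2.51, Bcl6 at 2.58 and Slpi, a protease inhibitor, at 2.58, where a flat profile lies 3.77 away. Areg read 6.88 on the heparin, 6.42 on the PPS, 5.22 on the warm and 5.13 on the cold array. It thus shared the order of supplemented above unsupplemented arrays at a smaller size, which its choice by distance favours.

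The profile of Slc22a7 had closer company. The nearest genes were Tmem38a, an intracellular cation channel, at a distance of 0.30, Prrc2a at 0.31, Fabp5, a fatty acid binding protein, at 0.35, Zbtb7c at 0.37 and Prom2 at 0.38, where a flat profile lies 1.13 away. Fabp5 read 9.21 on the heparin, 10.11 on the PPS, 10.21 on the warm and 10.08 on the cold array. All 5 were lowest on the heparin array, by construction of the measure.

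**Figure D5:**
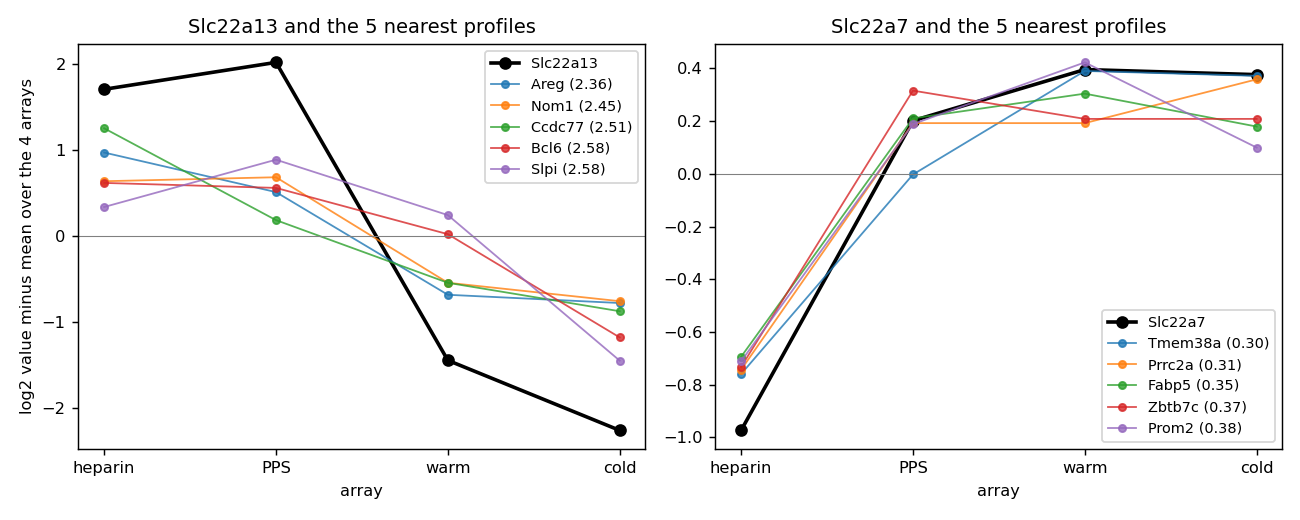
Log2 value minus the gene's own mean over the heparin, PPS, warm and cold arrays for Slc22a13 (left) and Slc22a7 (right), in black, and the 5 genes with the nearest profile, with the distance in brackets. The nearest genes to Slc22a13 lie at 2.36 or more, and those to Slc22a7 at between 0.30 and 0.38.

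Markers of the cells that carry these transporters, and of other cells, also differed between arrays. Of 24 proximal tubule markers listed, 20 were above the floor, and Slc5a1 and Cyp27b1 were below it on every array. Their median log2 difference was 0.03 for heparin and 0.11 for PPS against warm, and -0.20 for warm against cold, where 18 of 20 were negative. The log2 of their summed level was 18.51 on the heparin, 18.58 on the PPS, 18.48 on the warm and 18.64 on the cold array. Scaled to these markers, Slc22a13 differed by 3.14 with heparin and 3.37 with PPS, each against warm.

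Markers of the distal nephron and collecting duct ran the other way. Of 18 listed, 16 were above the floor, with Pvalb at the lowest value, and their median was -0.43 for heparin and -0.37 for PPS against warm, and 0.54 for warm against cold. The log2 of the summed level was 16.82 on the heparin, 16.84 on the PPS, 17.00 on the warm and 16.69 on the cold array. Aqp4, a basolateral water channel of the collecting duct, was the 1 marker of this list past the size limit, at -1.20 for heparin and -1.28 for PPS against warm, and 1.61 for warm against cold. The intercalated cell genes Foxi1 and Slc26a4 differed by -0.83 and -0.73 in heparin minus warm. Of 8 fibroblast and muscle markers, 7 were above the floor, with Lum below it, and the median was 0.37 for heparin and 0.69 for PPS against warm, and -1.29 for warm against cold. Their summed level was 11.42 on the heparin, 11.94 on the PPS, 11.22 on the warm and 12.32 on the cold array, on the log2 scale. The collagen genes Col1a1 and Col1a2 were past the size limit in PPS minus warm (1.70 and 1.47) and in warm minus cold (-1.29 and -1.43), and Col1a1 also in heparin minus PPS (-1.03). In warm minus cold 5 of the 7 passed it, Pdgfrb (-1.35) and Tagln (-1.31) among them, and in heparin minus cold the matrix proteoglycan gene Dcn did (-1.07).

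Podocyte markers, of which 5 of 7 listed were above the floor, had a median of -0.45 for heparin and -0.15 for PPS against warm, and 0.95 for warm against cold. The slit diaphragm gene Nphs1 (1.06) and the transcription factor gene Wt1 (1.01) were past the limit in warm minus cold. Endothelial markers, 7 of 8 above the floor, had medians of -0.21, -0.20 and 0.33 in the same 3 comparisons, and Vwf, which encodes a clotting factor carrier, differed by -1.59 in heparin minus cold. Leukocyte markers, 5 of 8 above the floor, had medians of -0.28, -0.08 and 0.16, with Cd68 and Itgam below the floor on every array. Of 5 red cell markers only Hbb, a haemoglobin chain, was above the floor. Its difference was -0.50 for heparin and 0.52 for PPS against warm, -1.14 for warm against cold, -1.02 for heparin against PPS and -1.65 for heparin against cold, and Alas2 was at the lowest value. Reference genes, 7 of 10 above the floor, had medians of 0.0019, -8.3e-04 and -0.09. The part of these shifts in the values of the Slc22 genes was not tested.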

How the data were processed

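Messenger RNA was measured on 4 Affymetrix rat arrays, 1 per group, each of RNA pooled from 3 kidneys, with 6 ug of total RNA labelled. The authors deposited log2 expression values per probe set. The submitters' processing notes name GCRMA without a version. That the scale is log2 follows from the range of the values, 2.11 to 16.4, as no header states it. GCRMA gives the arrays nearly the same distribution, so a change in total messenger RNA would not be seen.

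Of 31099 probe sets, 57 controls, 436 with several genes and 9780 unnamed ones were left out. Of the remaining 20826 probe sets, 20758 were found by Entrez identifier in the RefSeq annotation of GRCr8. The probe set with the highest mean was taken per gene. Values under the 50th percentile of all values, 4.51, were raised to it. Differences are of log2 values with a size limit of 1, and there is no test, because each group has 1 array. The count of genes past the limit was tested on simulated data, which does not calibrate the limit. Members and lists were chosen with earlier results of these data known. The text names all members, some of the family genes and partners, list genes past the limit (at most 4 per list and comparison, by size), the 5 nearest profiles of members spanning at least 1, and examples chosen after their values were seen. Alternatives were other floors, probe set rules, scalings and a 1.5-fold limit. Sequences are from RefSeq. Python 3.11.15, numpy 2.4.6 and pandas 2.3.3 were used. The number of arrays limits the precision.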

Additional observations from a re-analysis of the deposited data

Results flagged for a closer look

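The family genes and partners below had a difference from the warm array of opposite sign with heparin and with PPS. With 1 array each, the difference between the supplements was not tested, and all are under the size limit. Slc22a4 differed from warm by -0.0186 with heparin and 0.372 with PPS. Slc13a2, an apical dicarboxylate carrier, gave -0.122 with heparin and 0.363 with PPS. Slc22a15 gave -0.0744 with heparin and 0.0816 with PPS, Slc22a18 gave -0.0797 with heparin and 0.0151 with PPS, and Slc2a9, a urate carrier, gave 0.0272 with heparin and -0.0568 with PPS. None of the 7 members was among them.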

How the results depend on the processing

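No paired analysis was possible because each group has 1 array. No called member difference changed sign under any alternative tried. All 42 member differences moved by less than 0.24, the SD of heparin minus PPS over all genes, under most alternatives. These were no floor, the floor at the 40th percentile, and the mean or the widest-ranging probe set. The others were quantile normalization, median centring and scaling to reference genes or to proximal tubule markers. Removing or lowering the floor could not move any member, as every member lies above it on every array. The probe set rules could alter only Slc22a8, as each other member has a single probe set. With the floor at the 60th percentile, 8 of the 42 moved by more, all of Slc22a7 or Slc22a13, because some or all of their values lie under that floor. Members past the size limit were then 1 for heparin against warm, 0 for heparin against PPS and 1 for heparin against cold. Of the 8200 genes above that floor on at least 1 array, 108 passed the limit for heparin and 136 for PPS against warm. For heparin against PPS 20 did, and against cold 119 did for heparin and 90 for PPS. Scaled to the poly-A controls, 6 members passed the limit for heparin, 5 for PPS and 5 for warm, each against cold. Most of the 9669 genes then above the floor on at least 1 array did so too, with 7966, 6335 and 7208 in that order. Between warm and cold the split of all genes was then 68 higher and 7140 lower, against 233 and 109 as reported. Comparisons with the cold array therefore depend on the scaling, and those among the 3 warm-perfused arrays hardly do. At a 1.5-fold limit, 2 members passed for PPS (6.86% of all genes) and 3 for warm (11%), each against cold. The values of Slc22a7 and Slc22a13 nearest the floor are set in part by the background model.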
